A study of Mus musculus with 16 samples.

Results

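The regions described here are 1 kb stretches of the mouse genome, away from gene promoters, that were methylated in B cells and hypomethylated in T cells. The autosomes of the mm10 build were divided into adjoining regions of 1 kb, and a region was eligible with at least 5 CpGs and at least 150 sequenced calls in each cell type. It was distal when it lay more than 2 kb from every protein_coding transcription start site (TSS) of GENCODE vM21. Of 1488986 eligible distal regions, 2841 had a pooled methylation level of 80% or more in B cells and 40% or less in T cells. These 2841 regions were chosen by their level in B and T cells, so the B and T cell levels below describe the choice and carry no test unless held-out libraries are named. The opposite pattern was met by 1143 distal regions, which were hypomethylated in B cells alone, and 22261 were at 40% or less in both cell types.

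Splenic B cells (CD43-) and naive T cells (CD4+ CD62L+) were isolated by magnetic sorting from C57BL/6J mice of 6 to 8 weeks of age, with no treatment and no genetic change named. Each cell type had 8 whole genome libraries, 4 from male and 4 from female mice, and 2 libraries for each combination of cell type, sex and assay. The samples were pooled from several mice and no mouse is named, so the spread between libraries may be technical as well as biological. In bisulphite sequencing (BS) both methylcytosine and hydroxymethylcytosine are read as methylated. In oxidative bisulphite sequencing (oxBS) hydroxymethylcytosine is read as unmethylated, and the labels do not say which BS and oxBS libraries came from the same DNA.

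Methylation of CpGs is the default state of most of the mammalian genome outside CpG islands. Enhancers that are bound by transcription factors in a cell lineage typically lose methylation there and keep it in other lineages. TET enzymes oxidise methylcytosine to hydroxymethylcytosine, an intermediate on the way to an unmethylated cytosine. The difference between BS and oxBS is used to estimate the share of hydroxymethylcytosine.

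The windows of 200 bp with most CpGs were taken from the regions with the largest difference between B and T cells in 5 T lineage genes. They were chosen by CpG count, and their levels can differ from those of the whole region. Each window is given from the plus strand of GRCm38 (the same assembly as mm10), 5′ to 3′, with the CpGs in capitals.
Lef1 (chr3:131115494-131115693): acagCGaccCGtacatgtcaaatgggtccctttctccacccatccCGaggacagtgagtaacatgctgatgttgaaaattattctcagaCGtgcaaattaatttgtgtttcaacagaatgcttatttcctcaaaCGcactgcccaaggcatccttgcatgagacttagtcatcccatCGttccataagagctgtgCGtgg
Bcl11b (chr12:107926494-107926693): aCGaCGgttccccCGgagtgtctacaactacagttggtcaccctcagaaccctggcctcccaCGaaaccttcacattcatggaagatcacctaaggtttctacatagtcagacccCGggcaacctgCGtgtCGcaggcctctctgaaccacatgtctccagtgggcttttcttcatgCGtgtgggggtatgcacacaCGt
Cd247 (chr1:165791522-165791721): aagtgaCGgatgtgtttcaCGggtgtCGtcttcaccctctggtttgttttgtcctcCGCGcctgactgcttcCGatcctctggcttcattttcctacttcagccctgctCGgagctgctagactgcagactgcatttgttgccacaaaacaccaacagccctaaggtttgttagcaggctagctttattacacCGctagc
Tcf7 (chr11:52279370-52279569): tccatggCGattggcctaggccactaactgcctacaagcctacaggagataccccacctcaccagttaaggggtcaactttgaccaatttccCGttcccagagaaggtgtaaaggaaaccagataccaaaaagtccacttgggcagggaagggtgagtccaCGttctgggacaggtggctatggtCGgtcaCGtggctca
Cd28 (chr1:60750526-60750725): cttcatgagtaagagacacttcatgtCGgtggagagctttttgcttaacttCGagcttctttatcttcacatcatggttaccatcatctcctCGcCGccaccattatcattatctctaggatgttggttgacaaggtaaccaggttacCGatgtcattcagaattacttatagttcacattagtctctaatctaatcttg
The Lef1 window crosses the end of a coding exon and the intron after it, and the other windows lie within introns. At the 7 CpGs of the Lef1 window the pooled level was 93.7% in B cells over 442 calls and 0.215% in T cells over 465 calls. The 9 CpGs of the Bcl11b window were at 96.9% in B cells and 5.11% in T cells. Both cell types were as far apart at the 8 CpGs of the Cd247 window (93.6% and 1.57%) and the 5 CpGs of the Cd28 window (94.7% and 1.76%). The whole Cd28 region was at 16.1% in T cells, above its window. None of 387 T cell calls was methylated at the 5 CpGs of the Tcf7 window, which allows a level of up to 0.775% by counting error alone, against 95.6% in B cells.

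Each library held between 118868248 and 164440353 autosomal CpG calls, a mean of 5.83 to 8.07 calls per CpG. A member region had a median of 58 to 84 calls in a library. Promoters of T cell genes were low in T cells and high in B cells at Cd3e (1.87% and 89.6%), Cd3d (4.71% and 94.0%) and Cd3g (1.53% and 84.8%). The promoters of Tcf7 and Lef1 were under 2% in both cell types, and that of Cd28 was at 90.8% in T cells and 93.2% in B cells. A single window was measured for each promoter, and other transcript starts of Cd28 were not examined. The promoter of Ms4a1, a B cell gene, showed the reverse, at 92.7% in T cells and 0.697% in B cells. The difference was smaller at the other B cell promoters printed here, with Cd79a at 75.2% in T cells and 6.15% in B cells, Fcer2a at 80.7% and 24.5%, Cd79b at 33.7% and 2.33%, Cd22 at 49.6% and 29.9%, and Pax5 at 20.6% and 4.39%. Blk (9.67% and 0.201%) and Cr2 (9.76% and 5.43%) were under 10% in both. Of the other T cell promoters, Cd5, Cd6, Lck and Cd4 were between 8.96% and 11.7% in T cells and between 52.9% and 71.2% in B cells, and Thy1 was at 3.65% and 9.48%. The Cd8b1 promoter, a marker of CD8 T cells that the sort should remove, was at 21.1% in T cells and 88.6% in B cells, and the part of other T cells in the T cell levels was not tested. Of the other promoters on the list of CD8 T and NK cell markers, Cd8a was at 46.7% in T cells and 82.1% in B cells, Nkg7 at 15.9% and 41.4%, Prf1 at 30.1% and 37.7%, and Gzmb at 70.3% and 77.2%. The NK cell promoters Ncr1 and Klrb1c were between 79.7% and 89.5% in both.

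Within T cells the libraries split by assay and not by sex at the members. The median level over the 2841 regions was between 32.6% and 32.9% in the 4 BS libraries and between 21.2% and 21.4% in the 4 oxBS libraries, so the ranges did not overlap. B cell libraries were between 88.9% and 91.0%, and their BS and oxBS ranges did overlap. Among the B cell libraries, 1, 2, 9 and 10 were at 90.8% to 91.0% and libraries 3, 4, 11 and 12 at 88.9% to 89.4%, with both sexes and both assays on either side. The same libraries stood apart at the regions hypomethylated in B cells alone, where the first 4 had medians of 32.6% to 33.3% and the last 4 of 25% to 25.9%. The labels name no batch that divides the B cell libraries in this way, and its source was not tested. B cell libraries with consecutive numbers, 1 BS and 1 oxBS each, lay on the same side although no label states a pairing, and the tests below count them as separate libraries. Over all eligible distal regions the library medians were between 90.6% and 92.0%. Among T cell libraries the assays did not overlap there either, at 91.5% to 91.8% in BS and 90.6% to 90.9% in oxBS. The same held at regions low in both cell types (20.6% to 21.2% and 17.8% to 18.1%). It also held at regions low in B cells alone (90.6% to 91.0% and 87.3% to 88.1%).

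**Figure D1:**
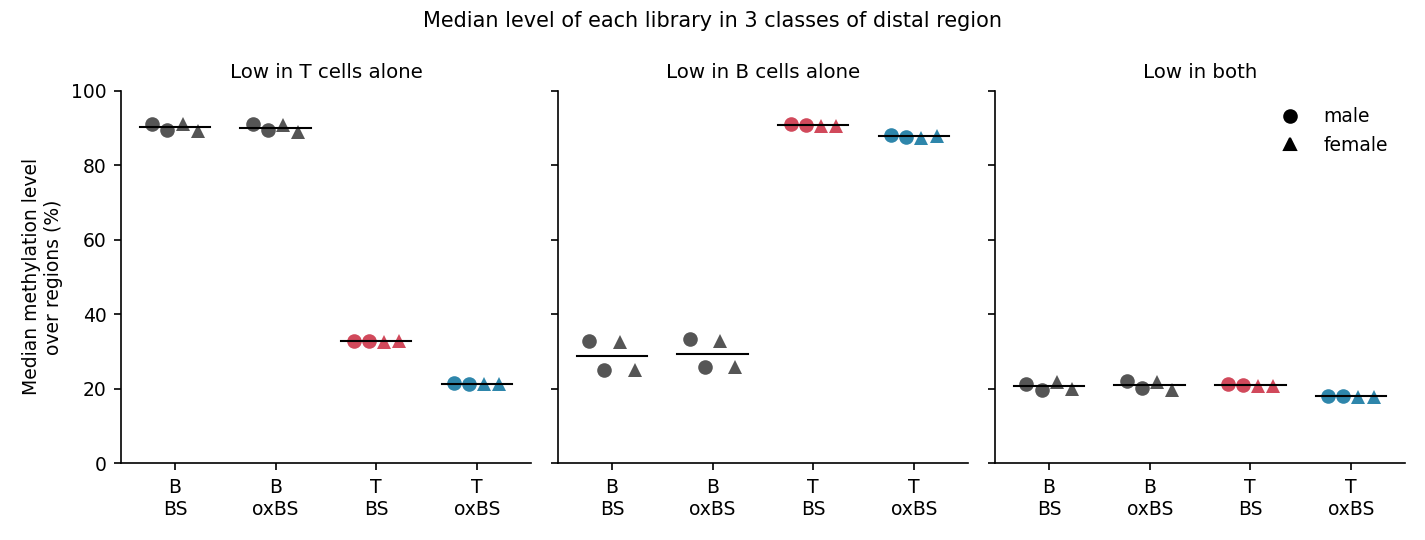
Median methylation level (%) of each library over distal regions low in T cells alone, low in B cells alone and low in both. Each point is a library (circles male, triangles female) and lines are means of 4 libraries. T cell BS libraries lie at 32.6% to 32.9% and T cell oxBS libraries at 21.2% to 21.4% in the left panel, while the B cell libraries lie at 88.9% to 91.0% in both assays.

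The pooled T cell level of the 2841 regions had a median of 29.0%, with quartiles of 19.6% and 35.2%, and the pooled B cell level had a median of 89.7%. The T cell level was 10% or less at 272 regions, and between 30% and 40% at 1323, which is 46.6% of them, so the regions were crowded towards the limit. In these bulk libraries, a region methylated in some of the cells cannot be told apart from one that is partly methylated in every cell. At the limit of 40% in T cells, the 3 members listed as nearest were at 40%, and the nearest regions outside it were at 40.017%, 40.021% and 40.026%. At the limit of 80% in B cells, the nearest members were at 80%, and the regions just outside at 79.97%, 79.966% and 79.964%. The difference between the cell types ranged from 40.7 to 96.0 percentage points. In 2839 of the 2841 regions every B cell library was above every T cell library, which describes the choice and tests nothing.

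To measure the same difference in libraries that had not chosen the regions, regions were picked in 1 sex and tested in the other. Of 2882 regions that met the rule in the male libraries and could be tested, 2881 were called higher in B cells in the 8 female libraries, where 4.92% of all 1598835 regions were called in that direction (quasi-binomial model with Benjamini-Hochberg adjustment). Of 2888 regions chosen in the female libraries, 2887 were called in the male libraries, against 4.71% of all regions. The median difference was 60.3 points in the held-out female libraries and 60.7 points in the held-out male libraries, and 61.1 and 60.9 points in the libraries used for the choice. Every B cell library was above every T cell library at 2878 regions in females, against 5.77% of all regions, and at 2886 in males, against 5.88%. With the calls of consecutive library numbers summed into 1 replicate, 2 for each cell type, 2880 of the 2882 and all 2888 were called, against 4.85% and 4.83% of all regions. Both levels were still within the limits of the rule at 2349 regions (81.5%) in females and 2352 (81.4%) in males. The region that was not called in females was chr15:102173001-102174000, at 69.0% in B cells and 52.5% in T cells (adjusted p = 0.0837). In males it was chr2:19600001-19601000, at 69.2% and 49.7% (adjusted p = 0.0897). Both were named because they were not called. The lowest differences were 16.5 points in females and 17.3 points in males, and no region reversed. Male and female mice share the strain and the sort, so the held-out libraries were not an independent sort or colony.

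Most members had no adjoining member. Regions directly beside a member had a median T cell level of 70.2% on the left and 68.3% on the right, and of 87.9% and 87.6% at a distance of 10 kb, while the B cell medians in the flanks were between 92.7% and 93.4%. The B cell median at the members themselves was lower, at 89.7%. Of 4965 neighbouring regions that could be measured, 1406 (28.3%) were at 40% or less in T cells and 1921 (38.7%) at 80% or more. Only 746 (15.0%) were members themselves, since a neighbour could also fail the rule by its B cell level or its distance from a TSS. The 2841 regions formed 2468 separate runs, of which 2220 were a single region. A single region is thus not always the whole of a stretch that was low in T cells.

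**Figure D2:**
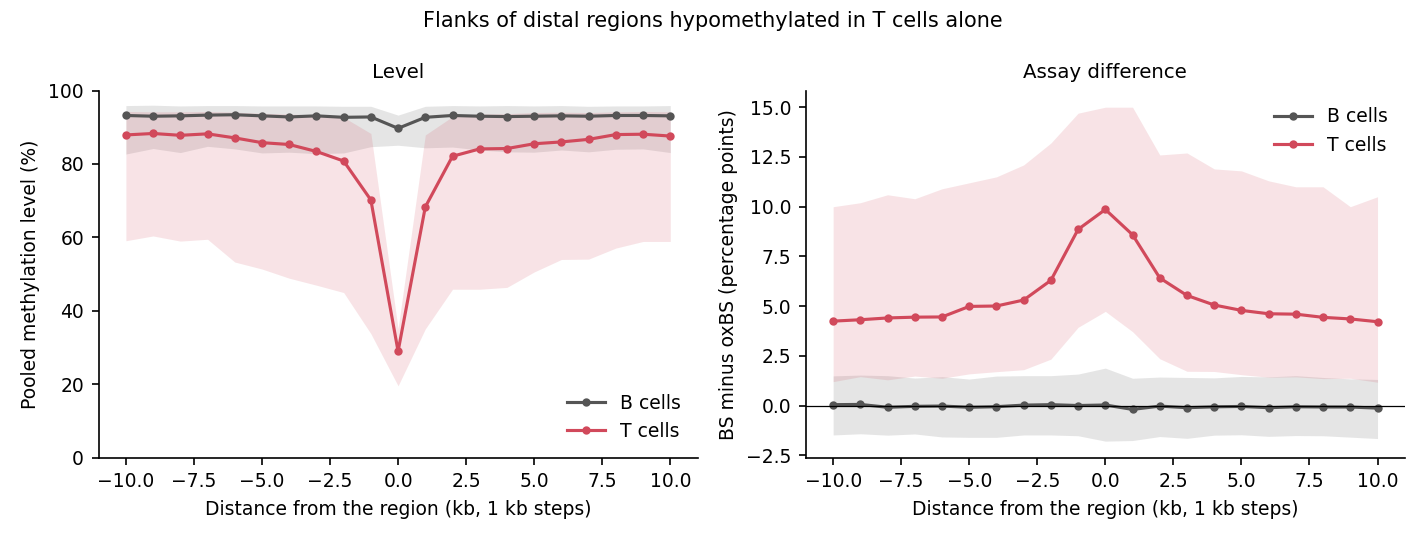
Pooled methylation level (left, %) and BS minus oxBS difference (right, percentage points) in steps of 1 kb from the members, with medians as lines and quartiles as bands, for B cells (grey) and T cells (red). The T cell median level falls from 87.9% at 10 kb to 29.0% at the region, and the T cell assay difference is 4.25 points at 10 kb and 9.86 points at the region, while the B cell difference stays near 0.

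The 3 longest runs lay at Tra, Bcl11b and Ugcg. The longest was 33 kb at the T cell receptor alpha locus (chr14:54189001-54222000), from the joining segment Traj30 to the constant segment Trac, with 388 CpGs. Its pooled level was between 9.09% and 17.2% in the T cell libraries and between 92.6% and 94.3% in the B cell libraries. A run of 12 kb (chr12:107920001-107932000) lay in an intron of Bcl11b, which encodes a transcription factor needed for T lineage commitment, at 14.6% in T cells and 87.9% in B cells. The third run covered 7 kb (chr4:59192001-59199000) in an intron of Ugcg, the gene of glucosylceramide synthase, at 24.7% in T cells and 87.2% in B cells.

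T cell receptor loci held 65 members, or 2.29%, against 0.0553% of all eligible distal regions. Of these, 47 were in Tra, 16 in Trb and 2 in Trg. Receptor genes are assembled in T cells by recombination that deletes the DNA between the joined segments, and the level of a region is read from the copies that are left. Calls in T cells relative to B cells had a median ratio of 0.864 at the Tra members and 0.725 at the Trb members, against 1.06 at all members. At all eligible distal regions of these loci, with T cell medians of 89.3% and 86.6%, the ratios were 0.849 and 0.733. The part of deleted copies in the levels was not tested. Of the 3 members with the lowest T cell level among those with 300 or more calls in each cell type, a pair lay in Trb. At chr6:41535001-41536000, over the joining segments Trbj1-5 to Trbj1-7, none of 358 T cell calls was methylated, which allows up to 0.838%, and the B cell libraries ranged from 84.8% to 96.7% with a median of 92.0%. At chr6:41545001-41546000, between annotated segments of the same locus, none of 481 calls was methylated, which allows up to 0.624%, against a B cell median of 95.8%. The third was chr11:4203001-4204000 in an intron of Tbc1d10a, with none of 840 calls methylated in T cells, which allows up to 0.357%, and B cell libraries between 77.4% and 85.2%.

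Members lay inside genes more often than the eligible distal regions did. Of the 2841, 1876 (66.0%) overlapped a protein_coding gene, against 45.5% of all eligible distal regions, and 1492 (52.5%) touched introns only, against 34.5%. Regions hypomethylated in B cells alone were in between, at 58.2% in genes and 44.4% in introns only. A distance of 10 to 50 kb from the nearest TSS was found for 1364 members (48.0%), against 34.5% of all. The share was 45.6% for regions hypomethylated in B cells alone and 40.5% for those low in both cell types.

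Except for effector genes, the lists of genes with known roles in T cells held members at a higher density than all protein_coding genes. Genes of the CD3 complex and co-receptors had 23 members among 136 eligible regions in their bodies, or 169 per 1000, and 5 of 6 genes with an eligible region held at least 1. Cd247 alone held 19 of these, and without it the list had 4 members among 53 regions, or 75.5 per 1000. TCR signalling genes had 61 members (51.9 per 1000) in 11 of 20 genes, and costimulation and adhesion genes had 21 (62.3 per 1000) in 9 of 16. Transcription factors of the T lineage had 133 (59.5 per 1000) in 12 of 17 genes. Receptors for homing signals and cytokines had 18 (43.7 per 1000) in 9 of 17. Over all protein_coding genes the density was 2.77 per 1000, and 1112 of 17429 genes (6.38%) held a member. Effector genes of activated T cells held none in their bodies, where only 62 regions were eligible, too few to show a density below that of all genes. B lineage genes held 3 members (2.68 per 1000), of which 2 were in Ralgps2 and 1 in Syk (named after their counts were seen), and 13 regions hypomethylated in B cells alone (11.6 per 1000). Without its leading gene, each of the other T lineage lists that held any had 42.9 to 49.5 per 1000. The lists were written with earlier results of these data known, and no test was made of their densities.

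**Figure D3:**
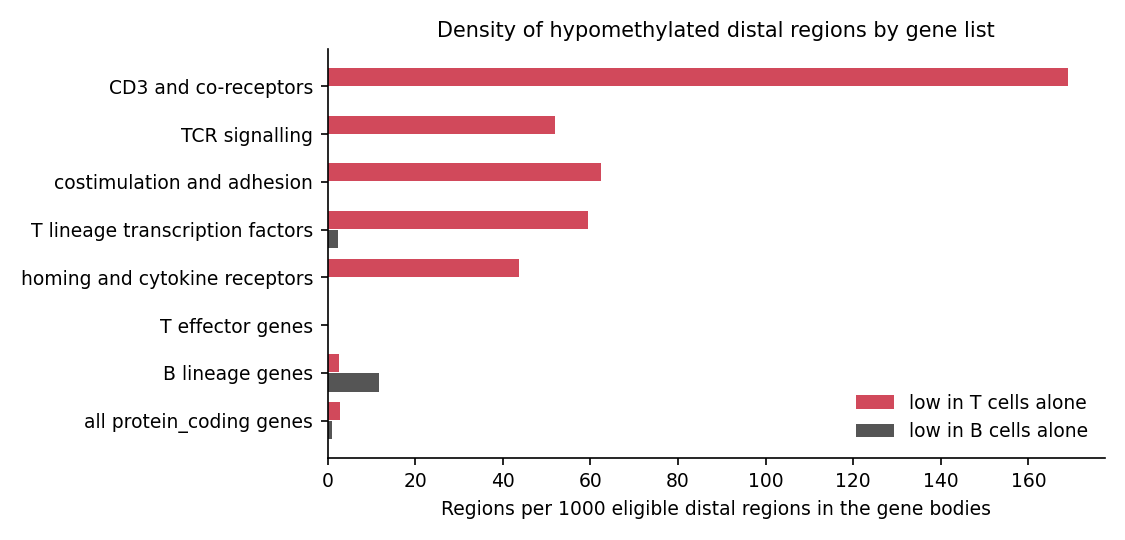
Number of distal regions low in T cells alone (red) and in B cells alone (grey) per 1000 eligible distal regions in the bodies of the genes of each list. The CD3 and co-receptor genes reach 169 per 1000 (75.5 without Cd247) and the other T lineage lists 43.7 to 62.3, against 2.77 over all protein_coding genes, and the effector genes have none among 62 eligible regions.

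The gene with most members was Lef1, which encodes a high mobility group factor of the WNT pathway that acts in early T cell development. It held 38 members among 108 eligible regions, with T cell levels between 0.429% and 39.3%. In its region with the largest difference (chr3:131115001-131116000, overlapping a coding exon), T cell libraries ranged from 0% to 1.08% with a median of 0.286%, and B cell libraries from 92.0% to 97.2%. Bcl11b came next with 24 of 91 regions. Its leading region, chr12:107926001-107927000, lay in an intron 76.6 kb from the TSS and was between 1.61% and 7.69% in T cell libraries and between 89.0% and 94.3% in B cell libraries. Ets1, a factor active in several lymphocyte types, held 19 of 105 regions. At its leading region (chr9:32713001-32714000, intron) the T cell libraries ranged from 0% to 6.9% and the B cell libraries from 80.7% to 94.6%. Ets1 also held 2 regions with the opposite pattern, hypomethylated in B cells alone.

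Tcf7 encodes TCF1, the partner of LEF1 in naive T cells, and held 11 members among 28 eligible regions although its promoter was unmethylated in both cell types. In an intron 3.01 kb from the TSS (chr11:52279001-52280000), the T cell libraries ranged from 0% to 0.775% and the B cell libraries from 90% to 99.1%. Gata3, a factor of CD4 T cell development, held a single member (chr2:9875001-9876000, overlapping an exon), with T cell libraries between 5.26% and 32.0% and a median of 18.0%. Low promoters in both cell types thus stood beside distal regions that differed, at Tcf7 and at Lef1.

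Cd247, the zeta chain through which the T cell receptor signals, held 19 of 83 regions. Its leading region lay in an intron 2.32 kb from the TSS (chr1:165791001-165792000), with T cell libraries between 0% and 6.67% and B cell libraries between 91.7% and 97.3%. No member lay in the body of Cd3e, a subunit of the CD3 complex, and of 2 members within 50 kb of it the leading one was in an intron of the neighbouring Ube4a (chr9:44954001-44955000, T cell median 3.84%, B cell median 94.0%). The co-receptor gene Cd4 held 1 member (chr6:124879001-124880000, overlapping an exon), where the T cell libraries ran from 16.7% to 54.0% and the B cell libraries from 72.7% to 91.1%. The genes of the CD8 co-receptor each held 1 in the body. That in Cd8b1 (chr6:71334001-71335000) was between 21.6% and 43.2% in T cell libraries, and that in Cd8a (chr6:71376001-71377000) between 25.6% and 48.9%. These 3 co-receptor regions thus had T cell medians of 33.3% to 39.6%, near the limit of the rule.

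Among the named signalling genes, the leading regions lay within 3 kb of the TSS. Prkcq, a protein kinase C of the immune synapse, held 15 members, and its leading region (chr2:11175001-11176000, intron, 2.89 kb from the TSS) was between 0.893% and 16.7% in T cell libraries. Grap2, an adaptor, held 10, and its leading region was in an intron 2.41 kb from the TSS (chr15:80575001-80576000). The T cell median there was 1.31%, against a B cell median of 94.6%. Lck, the kinase bound to the co-receptors, held 2 members, and its leading region (chr4:129570001-129571000) was between 10.9% and 25.4% in T cell libraries and between 80.8% and 89.2% in B cell libraries.

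Cd28, the main costimulatory receptor of naive T cells, held 6 members and had 11 within 50 kb. Its leading region (chr1:60750001-60751000) lay in an intron 33.2 kb from the TSS, between 4.0% and 30.8% in T cell libraries and between 80.9% and 95.7% in B cell libraries, although the promoter was methylated in both cell types. Ctla4, an inhibitory receptor, held none in the body, and the leading one of 2 within 50 kb (chr1:60883001-60884000, intergenic, 3.0 kb from the TSS) had a T cell median of 34.3%. Cd2 and Cd5, surface receptors of T cells, held 4 and 3. The leading region of Cd2 (chr3:101284001-101285000, intron) had a T cell median of 4.86% and that of Cd5 (chr19:10732001-10733000, intron) of 34.0%.

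**Figure D4:**
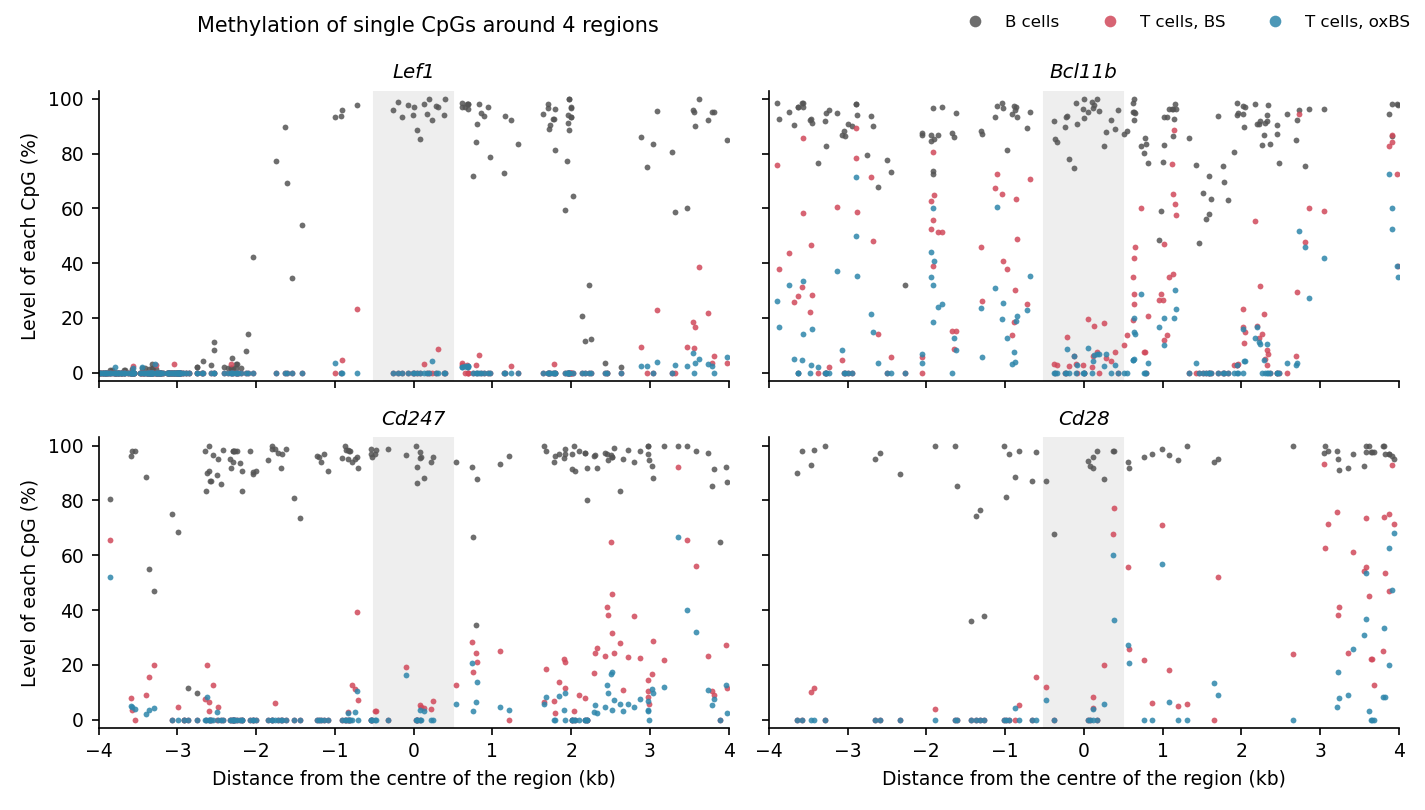
Level (%) of each CpG with 10 or more pooled calls against its distance in kb from the centre of the leading region in Lef1, Bcl11b, Cd247 and Cd28, for B cells (grey), T cell BS libraries (red) and T cell oxBS libraries (blue). The shaded 1 kb is the region, where the pooled T cell level is 0.429%, 4.03%, 2.92% and 16.1% and most B cell points lie above 80%.

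Receptors for homing and cytokines were among the lowest and the more intermediate. Ccr7, the chemokine receptor that directs naive T cells to lymph nodes, held 3 members, and its leading region (chr11:99152001-99153000, intron, 2.08 kb from the TSS) was between 0% and 1.75% in T cell libraries and between 72.6% and 97.2% in B cell libraries. Il7r, the receptor for a survival cytokine, held 2, with T cell libraries between 4.0% and 20% at chr15:9525001-9526000. Tgfbr2 and Il6ra, receptors for TGF-beta and interleukin 6, held 4 and 3 members, and their leading intronic regions (chr9:116091001-116092000 and chr3:89875001-89876000) had T cell medians of 33.8% and 25.5%. The effector genes had members only outside their bodies, and 5 of 12 (41.7%) had at least 1 within 50 kb, against 14.2% of all protein_coding genes. The leading ones near Il21 (chr3:37209001-37210000), Il2 (chr3:37157001-37158000) and Gzmb (chr14:56276001-56277000), which encode a pair of cytokines and a granule protease, had T cell medians of 33.7%, 37.8% and 39.1%.

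The assay comparison asked how much of the methylation left in T cells was read in BS and not in oxBS. The rule had pooled both assays. Oxidation and conversion were not tested, so a difference between library preparations cannot be told apart from hydroxymethylcytosine. BS levels were higher than oxBS levels at 2650 of 2832 tested members (93.6%), with a median difference of 9.86 points and quartiles of 4.74 and 15.0 points. Over all eligible distal regions the median was 0.833 points and 62.3% were higher in BS. At an adjusted p under 0.05, 1136 members (40.1%) were called higher in BS, against 3.28% of all 1600602 regions, and 0 were called higher in oxBS, against 0.0595% (quasi-binomial model with dispersion moderated across regions). Most eligible distal regions were highly methylated in T cells (lower quartile 85.3%), and called shares at matched levels are given below. At an unadjusted p under 0.05 there were 1843 members in either direction (65.1%), against 12.1% of all eligible distal regions. The members had a mean dispersion of 1.59 and a median of 1.33, above the shared value of 1.15. Sharing thus lowered the dispersion used at most of them. The calls depended on the test. With the dispersion of each region alone 1 member was called higher in BS, against 61 of all regions and 5 higher in oxBS. On log ratios limma, which also shares variance between regions, called 0 regions of any kind. At an unadjusted p under 0.05 these tests had 1364 members (48.2%), against 10.5% of all regions, and 1367 members (48.3%), against 11.1%. Without any model, every BS library was above every oxBS library at 1099 members (38.8%), against 6.24% of all regions, and every oxBS library above every BS library at 2 (0.0706%), against 0.862%. The median was 9.65 points when only male libraries were used and 9.62 points with only female ones.

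In B cells the assay difference at the same regions was centred near 0. The median was 0.0365 points, with quartiles of -1.78 and 1.89 points, and 1427 of 2833 regions (50.4%) were higher in BS. The model called 0 members in either direction, against 0.002% of all 1598015 regions for BS and 0.00845% for oxBS. At an unadjusted p under 0.05 there were 143 members (5.05%), against 4.5% of all eligible distal regions, and limma called 0 as well. All BS libraries were above all oxBS libraries at 28 members (0.988%), against 1.28% of all regions, and all oxBS libraries above all BS libraries at 29 (1.02%), against 1.38%. A test of whether the assay difference itself differed between cell types was chosen after these values were seen. It compared differences in log odds and not in points. With a larger difference in T cells, 135 of 2825 members were called, against 0.357% of all regions. It called 0 members with a larger difference in B cells, against 0.00489%, and 1029 members (36.4%) had an unadjusted p under 0.05 in either direction, against 8.87% of all regions.

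The assay difference of the members in T cells was larger in points at higher levels, where a difference in points has more room, and smaller relative to the level. Members with a T cell level up to 10% had a median difference of 3.38 points. The medians were 8.05 points between 10% and 20%, 11 points between 20% and 30% and 11.8 points between 30% and 40%. The pooled oxBS level was 46.9% of the pooled BS level in the lowest of these bins, then 57.4%, 65.4% and 71.1%. At the same levels, regions that were hypomethylated in both cell types had medians of 0.737, 2.1, 2.46 and 2.07 points, and oxBS levels of 84.4%, 87.4%, 94.7% and 94.0% of the BS level. All eligible distal regions in these bins, members included, had medians of 0.905, 3.01, 3.95 and 4.05 points. Of them, 8.75%, 16.5%, 17.8% and 16.4% were called higher in BS, against 24.1%, 37.8%, 44.0% and 41.9% of the members. All eligible distal regions between 40% and 50% in T cells had a median of 3.93 points. In the flanks the median difference fell to 8.86 points at 1 kb on the left and 8.59 points on the right, and to 4.25 and 4.22 points at 10 kb, where the T cell level was near 88%. The regions hypomethylated in B cells alone, which were methylated in T cells, had a median of 2.23 points in T cells and of -0.334 points in B cells.

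**Figure D5:**
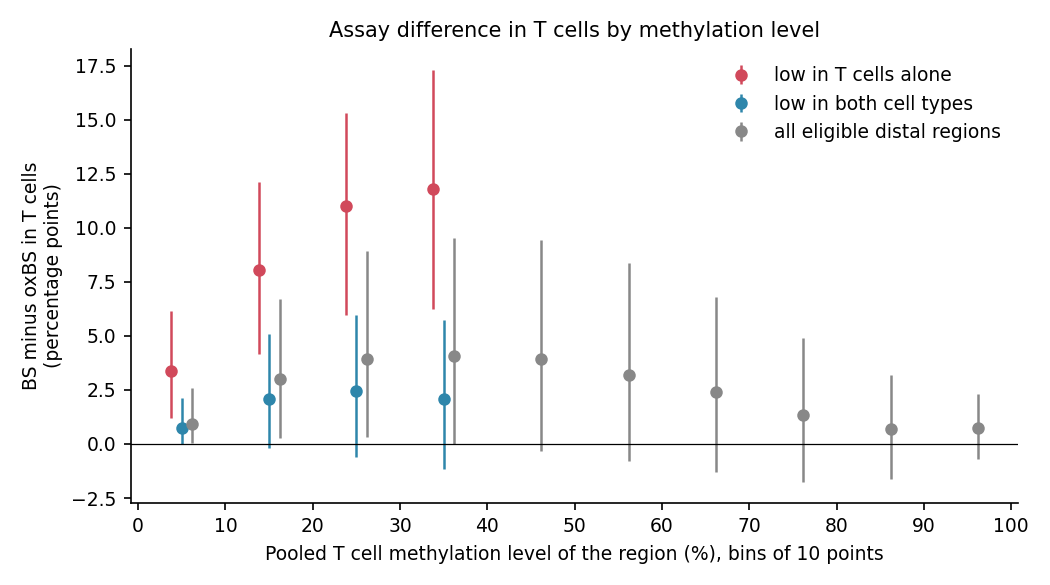
BS minus oxBS difference in T cells (percentage points) against the pooled T cell level of a region in bins of 10 points, with medians as points and quartiles as bars, for members (red), regions low in both cell types (blue) and all eligible distal regions (grey). Members between 30% and 40% have a median of 11.8 points, against 2.07 points for regions low in both.

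Among members in T lineage genes the called share was above that of all members. Of 256 members in the bodies of genes from the 5 T lineage lists that held any, 253 were higher in BS and 178 (69.5%) were called, against 40.1% of all members tested and 3.28% of all regions, with a median of 13.6 points. By list the called share ran from 55.6% (10 of 18, homing and cytokine receptors) to 87.0% (20 of 23, CD3 and co-receptors). Many of the 256 were regions of the same few genes and are not independent, and the difference in share was not tested. In Lef1, 32 of 38 members were called with a median of 16.4 points, in Cd247 16 of 19 with 17.4 points, and in Bcl11b 19 of 24 with 13.7 points. All 6 members in Cd28 were called, with a median of 25 points. At Tcf7, where most members were close to 0% in T cells, 5 of 11 were called and the median was 2.03 points. Members in the Tra locus had a median of 6.42 points and those in Trb of 4.03 points. The leading region of Lef1, close to 0% in T cells, was at 0.585% in BS and 0.238% in oxBS (adjusted p = 0.841).

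The largest called difference was at chr7:127140001-127141000, an intergenic region 2.18 kb from the TSS of Spn, the gene of the surface sialoglycoprotein CD43. It was at 54.5% in pooled T cell BS libraries and 17.3% in oxBS libraries (adjusted p = 6.12e-09). An intronic region of Ets1 (chr9:32737001-32738000) followed, at 54.1% and 17.1%, and then an intronic region of Cd28 (chr1:60753001-60754000), at 51.7% and 15.7%. Large differences were also found at named regions of Cd5 (45.6% in BS and 21.8% in oxBS), Il6ra (40.5% and 15.0%) and Gata3 (26.8% and 10.5%), each of which was called. At Prkcq, 13% in BS was left as 1.81% in oxBS (adjusted p = 1.13e-05). Named regions of Il7r (17.6% and 8.33%, adjusted p = 0.308) and Tgfbr2 (37.6% and 23.4%, adjusted p = 0.067) were not called.

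Few members were called between the sexes. In T cells the median of male minus female was 0.117 points over the members, and 1 of 2832 was called higher in males, against 0.0107% of all regions, with 0 higher in females, against 0.0134%. That region was chr12:54567001-54568000, an intergenic region 88.6 kb from the TSS of Sptssa, and its pooled T cell level was 47.2% in males and 19.4% in females (adjusted p = 7.84e-05). With the calls of consecutive library numbers summed, 1 member was called higher in males and 2 in females, against 0.0139% and 0.0175% of all regions. The call was lost without female BS library 13 or male BS library 7, by limma, and with the dispersion of each region alone. Within each assay, both male libraries were above both female libraries at 87 members (3.07%), against 2.46% of all regions, and both female libraries above both male ones at 82 (2.9%), against 3.04%. In B cells the median was 0.0482 points, and 0 members were called, against 0.00788% for males and 0.00776% for females over all regions. At an unadjusted p under 0.05 there were 281 members in T cells (9.92%), against 5.17% of all eligible distal regions, and 147 in B cells (5.19%), against 4.67%. In T cells this excess was not found with the dispersion of each region alone (140 members, 4.94%, against 5.02% of all regions) or by limma (81 members, 2.86%, against 4.91%), and the members had a mean dispersion of 1.59, against 1.15 for all eligible distal regions. In B cells those tests had 119 members (4.2%, against 4.77%) and 99 members (3.49%, against 4.67%). B cell libraries of males lay above those of females within each assay at 83 members (2.93%), against 2.49%, and the reverse held at 60 (2.12%), against 2.75%.

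GC content and the number of CpGs set the members only slightly apart. The median GC content was 44.5%, against 43.2% of all eligible distal regions. The median share of repeat-masked bases was 19.3%, against 22.6%, and the mean share was 22.4%, against 30.4%. That mean was 21.1% at regions low in B cells alone and 18.2% at those low in both cell types. The median number of CpGs was 10 per region, against 9. Letters of short motifs were searched on both strands of each 1 kb, and a match describes the sequence without showing that a factor binds. The RUNX letters TGTGGTT were in 34.0% of the members, against 21.9% of all eligible distal regions, 24.3% of regions hypomethylated in B cells alone and 26.4% of regions low in both cell types. The TCF and LEF letters ATCAAAG were in 23.9%, against 17.6%, 15.0% and 14.5%. The GATA letters AGATAA were in 53.3%, against 47.4%, 42.6% and 40.2%. The ETS letters ACAGGAAG were in 13.9% of members, against 9.29% of all, 15.0% of regions low in B cells alone and 16.8% of regions low in both. The EBF letters CCCNNGGG, named for a B lineage factor, were in 16.0% of members, against 16.9% of all, 43.7% of regions low in B cells alone and 29.7% of regions low in both. The OCT letters ATGCAAAT were in 4.47%, against 7.55%, 11.1% and 5.93%. With only the regions between the GC quartiles of the members (41.5% and 47.4%), the RUNX letters were in 35.9% of members, 22.6% of all, 28.8% of regions low in B cells alone and 31.3% of regions low in both. The TCF and LEF letters were then in 23.1%, 16.2%, 14.3% and 16.5%. Of the printed windows, that of Bcl11b held the RUNX letters, that of Cd28 the GATA letters, that of Cd247 the IRF letters GAAANNGAA, and that of Tcf7 the letters CACCTG of an E-box and AGGNGGC of a CTCF core. The IRF letters were in 31.3% of members, 31.4% of all, 33.1% of regions low in B cells alone and 32.3% of those low in both. In the same order, the E-box letters were in 58.1%, 49.2%, 58.9% and 55.5%, and the CTCF letters in 40.1%, 34.7%, 43.7% and 54.9%.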

How the data were processed

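The authors deposited, per library, raw call counts per CpG, methylated and unmethylated, summed over the strands, made with Trim Galore 0.6.0, Bismark 0.20.0 on mm10 and SAMtools 1.3.1 per the labels, with a mapping quality limit of 10. Positions that are CpGs of GRCm38 on 19 autosomes were kept, and calls were summed per 1 kb. Each library held 118868248 to 164440353 such calls. A level is methylated calls over all calls, and pooled levels sum the libraries of a cell type.

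Assays, sexes and held-out cell types were compared per region with a quasi-binomial logistic model (assay or sex as covariate), a two-sided F test on the deviance and dispersion moderated by limma 3.58.1. Regions needed 10 calls in every library used. Adjustment was by Benjamini-Hochberg over all tested autosomal regions, promoters included, and a call is an adjusted p under 0.05. On 20000 simulated regions for the T cell assay comparison, 16 of 100 differences of 10 points, 69 of 100 of 20 points and 8 of 19800 regions without a difference were called. The limits for a count of 0 allow 3 counts and cover counting error only, since calls of a read are not independent.

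The rule, lists of genes and motifs were chosen with earlier results of these data known. Named regions were the leading member (largest difference between B and T cells) of the 3 genes with most members in each T lineage list and of 11 set genes, the 3 longest runs, the 3 lowest T cell levels, the 3 regions on either side of each limit, up to 3 called members per test and direction, and the 5 genes with most members. Python 3.11.15, NumPy 2.4.6, SciPy 1.17.1, pandas 2.3.3, Matplotlib 3.10.9 and R 4.3.3 were used. Alternatives covered the limits of the rule, the call minimum, the test and each library left out. Distances printed for named regions run from the annotated start of a protein_coding gene, and not from every transcript start as in the rule. Sex chromosomes were not analysed here. Some genes that the naming rule selects are not reported here.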

Additional observations from a re-analysis of the deposited data

Results flagged for a closer look

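The BS minus oxBS difference was flagged because it differed between cell types by a test of the difference itself, in log odds and not in points. A larger difference in T cells was called at 135 of 2825 members, against 0.357% of all regions. With a larger difference in B cells 0 were called, against 0.00489%. Among 148 groups of 4 or 8 libraries, 14 (9.46%) held a library far from the others by Dixon's test, where chance flags about 5%. In B cell BS libraries, library 1 was low at the regions of Cd247 (92.9%, the others 96.5% to 97.1%) and Cd8b1 (89.1%, the others 94.4% to 95.2%). Library 4 was low at Cd8a (84.9%, the others 91.7% to 92.7%) and Lck (82.1%, the others 85.7% to 86.3%), and library 12 at Cd28 (80.9% over 47 calls, the others 94.2% to 95.7%). In B cell oxBS libraries, library 3 was low at Lck (80.8%, the others 88.2% to 89.2%). Library 9 was low at chr6:41545001-41546000 (92.3%, the others 97% to 97.6%) and chr12:54567001-54568000 (90.4%, the others 96.5% to 97.1%), and library 11 at chr11:4203001-4204000 (77.8%, the others 84.5% to 85.2%).

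In T cell libraries, BS library 7 was low at Cd8b1 (28.9%, the others 42.5% to 43.2%). Of the oxBS libraries, 8 was low at Cd247 (0.0%, the others 2.53% to 2.88%) and Gata3 (5.26%, the others 12.2% to 13.1%). Library 6 was low at Cd4 (16.7% over 42 calls, the others 32.7% to 34.6%) and high at Lef1 (1.08% over 93 calls, the others at 0%).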

How the results depend on the processing

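The library numbers in the labels are unique and state no pairing. A replicate block on consecutive numbers, chosen after seeing the data, called 1114 members higher in BS in T cells and 0 higher in oxBS, against 3.16% and 0.0567% of all regions, and 0 in B cells, against 0.00338% and 0.013%. Without the block it was 1136 and 0. With the calls of consecutive numbers summed, also chosen after seeing the data, the count for sex was 3 in T cells and 0 in B cells, with 10.1% and 4.87% of members at an unadjusted p under 0.05, against 5.39% and 4.42% of all regions. The number of members moved by over 1.5 times with limits of 85% and 35% (1582) and of 75% and 45% (4591), and was between 2701 and 2996 with each library left out. With BS libraries alone it was 2109 and with oxBS libraries alone 4172, of which 2698 were members. The count of members called by assay in T cells was 1 with the dispersion of each region alone (0.00381% of all regions higher in BS), 0 by limma (0 of all), 135 in the interaction test (0.357% of all), and 910 to 968 with each library left out (2.5% to 2.62% of all). The count for sex in T cells was 0 with the dispersion of each region alone and 0 by limma, and 0 to 4 with each library left out, against 0.00887% to 0.0141% of all regions for males and 0.0131% to 0.0158% for females; in B cells it was 0 to 1, against 0.00425% to 0.0203% and 0.00707% to 0.0107%. The median assay difference in T cells was 9.65 points with only male libraries, 9.62 points with only female ones and 9.73 to 9.91 points with each library left out. The median sex difference in T cells was -1.47 to 1.74 points with each library left out, since leaving out a library unbalances the assays. Held-out calls were 2655 to 2891 in females and 2659 to 2893 in males over 14 alternatives each, against 1.43% to 5.18% and 1.35% to 4.94% of all regions. The simulation used T cell depths of 20000 regions drawn from all tested ones, with the same spread at every region. It called 16 of 100 differences of 10 points, and it does not give the share that would be called at the members.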

Other observations

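Outside the lists, several genes held dense groups of members. Ptprc, the gene of the leukocyte phosphatase CD45, held 14 members among 64 eligible regions in its body. Znrf1, a ubiquitin ligase gene, held 13 of 71, and Ikzf1, the gene of the lymphoid factor Ikaros, held 13 of 66. Ugcg held 12 of 31 and Fam78a held 11 of 31. These genes were chosen after their counts were seen.

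The density of members varied by chromosome from 1.23 per 1000 eligible distal regions on chromosome 18 to 2.83 on chromosome 11. A transcript start of another type than protein_coding lay in 129 members (4.54%), against 2.34% of all eligible distal regions and 7.94% of those hypomethylated in both cell types.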
